A study of Homo sapiens
Mus musculus with 6 samples.

Results

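The genes described here encode Notch machinery, most of it used by a signal-receiving cell to mature, cleave, relay and end a Notch signal. They were taken from the mouse table of a co-culture experiment by symbol, as 36 named genes of 23433 entries, and all 36 were found. By role they comprise 3 proteases that cut the receptor outside the membrane or in the Golgi, 5 glycosylation enzymes, 4 subunits of gamma-secretase, 9 genes for RBPJ and its coactivators, 5 corepressors, and 10 endocytic adaptors and ubiquitin ligases. The receptors, the ligands and the best known target genes are not among them, apart from Lfng, a receptor-modifying enzyme that is also a Notch target in some tissues.

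Notch receptors are cut by furin and decorated with sugars on their way to the cell surface. A ligand on a neighbouring cell exposes the receptor to an ADAM protease, after which gamma-secretase releases the intracellular domain. That domain enters the nucleus, displaces corepressors from the DNA-binding protein RBPJ and recruits Mastermind proteins and acetyltransferases, until ubiquitin ligases mark it for removal. In muscle precursor cells Notch signalling is known for holding back differentiation.

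RNA from 6 wells was sequenced, each well holding mouse C2C12 myoblasts, a skeletal muscle precursor line, as receiving cells and human HEK293-Flp-In embryonic kidney cells as sending cells. The C2C12 cells were either C2C12-Notch1, which stably carry full-length Notch1 and were kept under puromycin, or C2C12-control. The HEK cells were HEK-Jag1Ndr, carrying Jag1 with the Nodder missense allele, HEK-Jag1WT, carrying wild-type Jag1, both kept under hygromycin, or HEK-control. Every combination was represented by 1 well, written below as C2C12-Notch1/HEK-Jag1WT and the like. In every well the C2C12 cells had 8 h to settle, 1.6 ug of empty plasmid was transfected, the HEK cells were added 18 h later, and the co-culture lasted 6 h. Whether a line is a single clone is not given in the sources used here.

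Mouse reads ranged from 2263529 to 5203506 in the C2C12-Notch1 wells and from 3983213 to 7965231 in the C2C12-control wells, and the well of C2C12-Notch1 with HEK-Jag1WT was the shallowest. They made up 33.2% ± 3.46 of gene reads in the C2C12-Notch1 wells and 49.8% ± 2.76 in the C2C12-control wells (SD, n = 3 each). Fewer mouse cells and less RNA per mouse cell cannot be told apart, and the part of this share in the results was not tested. Notch1 itself stood at 158 to 179 RPKM (reads per kilobase of gene model, taken here as scaled to the reads of that species) in the C2C12-Notch1 wells, against 9.06 to 20.4 RPKM in the C2C12-control wells. Of the 13 C2C12 markers, 1 was below 1 RPKM in the mouse table, and their summed level was 1822 to 2053 RPKM in the C2C12-Notch1 wells and 1981 to 2359 RPKM in the C2C12-control wells. Single markers differed between the lines, with 5 of 12 tested called higher and 5 lower by edgeR. That is 83.3%, in a comparison where 57.8% of all genes tested were called. Myog averaged 32.9 RPKM in the C2C12-Notch1 wells and 12.1 RPKM in the C2C12-control wells. Col1a1 averaged 25.2 RPKM in the C2C12-Notch1 wells and 203 RPKM in the C2C12-control wells; these markers were named after their values were seen. Of the 15 HEK markers, 9 were below 1 RPKM in the mouse table, with Epcam, Krt18 and Cdx2 at 0 reads. The summed mouse-table level of the HEK markers, most of it from Nefl, Krt19, Nefm and Stmn2, was 210 to 229 RPKM in the C2C12-Notch1 wells and 298 to 328 RPKM in the C2C12-control wells. Not all of them are HEK genes here, since Stmn2 had 3072 mouse and 1 human reads over the 6 wells, Nefm 2517 mouse and 71 human reads, and 4 of the 15 HEK markers were below 1 RPKM in the human table. Over the 9 HEK markers with at least 1000 human reads, the median was 0.175 mouse reads per 100 human reads. If human reads were assigned to the mouse members at that rate, they would make up 0.04% of the reads of Dtx4, 1.36% of those of Psen2 and at most 2.6% of those of any tested member, Cir1. At the rate of Cdh1, 1.61 per 100, the highest apart from Krt19 and Nefl, the shares would be 0.371% for Dtx4, 12.5% for Psen2 and 24.2% for Cir1.

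The receiving cells expressed nearly the whole machinery. Levels here are RPKM, averaged over the 6 wells. Over the 36 genes the mean level ran from 0.0979 to 78.9 RPKM with a median of 15.9 RPKM. The highest genes by role were the corepressor gene Ctbp1 at 78.9 RPKM, the convertase gene Furin at 67.3 RPKM, Snw1, a coregulator found with RBPJ that also acts in splicing, at 54.4 RPKM and the nicastrin gene Ncstn at 46.0 RPKM. At the low end, the Mastermind gene Maml2 averaged 1.64 RPKM and the catalytic gamma-secretase gene Psen2 averaged 4.68 RPKM. The ubiquitin ligase gene Fbxw7 averaged 4.69 RPKM. Mfng, 1 of the 3 Fringe glycosyltransferase genes, had 3 reads over all wells, 2 of them in the C2C12-Notch1/HEK-Jag1WT well and 1 in the C2C12-Notch1/HEK-control well. It was the only member left out of the tests for low counts, so 35 were tested. Their reads over the 6 wells ran from 77 (Cir1) to 7638 (Furin), with a median of 1452 over all 36 genes.

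**Figure D1:**
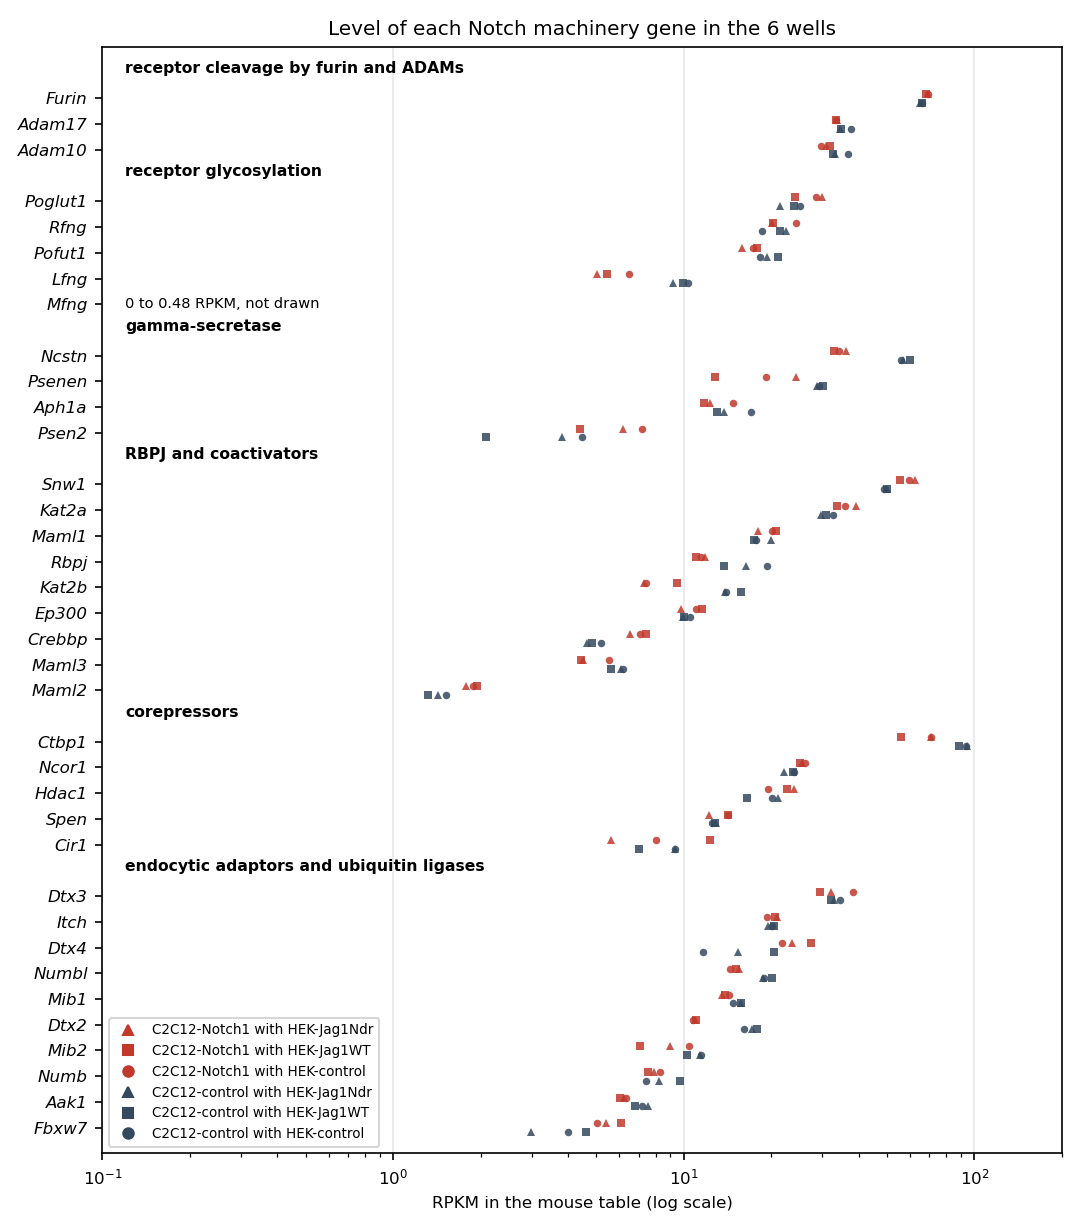
RPKM in the mouse table (log axis) for each gene, grouped by role and ordered by mean level, with 1 point per well, colour for the C2C12 line and shape for the HEK line. Most genes lie between 4 and 100 RPKM, Maml2 lies lower and Mfng, at 0 to 0.48 RPKM, is written and not drawn, while Ncstn, Lfng, Kat2b and Dtx2 show the C2C12 lines apart.

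For some genes the deposited level rests on far less counted sequence than that of the human gene. The length implied by reads and RPKM together was less than 0.5 times that of the human gene for 6 of the 36 genes (16.7%), and for 4 of the 31 with at least 10 reads in every well of both tables (12.9%), against 7.28% of 8636 shared symbols that met the same minimum. It was 323 nt for Cir1 against 1741 nt in the human table, and 159 against 647 nt for the gamma-secretase gene Psenen. For Hdac1, Rbpj, Mib1 and Aph1a the mouse length was 0.31, 0.382, 0.409 and 0.42 times the human length. Which sequence was counted was not tested, so the levels of these 6 genes are uncertain beside those of other genes.

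The first comparison asked how the machinery differed between the C2C12 lines, with the HEK partner held as a term. The genes that fell most in C2C12-Notch1 cells were Kat2b, Lfng, Ncstn, Dtx2 and Rbpj, and those that rose most were Psen2, Dtx4, Fbxw7 and Crebbp. All changes were under 2-fold, from -0.88 to 0.68 on the log2 scale. In edgeR's quasi-likelihood test, 20 of 35 tested genes passed, 8 higher and 12 lower, or 57.1%. Of all 11365 genes tested, 57.8% passed, 28.4% higher and 29.4% lower, so the count among the machinery was close to that of the table as a whole. Of the 35 genes, 8 passed with a change of at least 0.5 on the log2 scale, against 26.1% of all genes. The median absolute change was 0.23 for the machinery and 0.28 for all genes. DESeq2 called 7 of the 35, and it also called fewer of all genes than edgeR did, as given in the section on processing below. The RPKM ranges of the lines did not overlap for 22 of the 35, against 58.3% of all genes. All 20 called genes had the same sign in each of the 3 pairs of wells that share a HEK partner, as did 6 of the other 15. The calls were made from these same wells, so the shared signs are not separate evidence for them.

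The genes of the cleaving proteases differed little between the lines. Furin, which makes the first cut in the Golgi, had 69.3, 68.1 and 69.5 RPKM in the C2C12-Notch1 wells with HEK-Jag1Ndr, HEK-Jag1WT and HEK-control, against 64.9, 65.7 and 66.2 RPKM in the matching C2C12-control wells. Adam10, the protease of the ligand-dependent cut, had 31.0, 31.8 and 29.5 RPKM in the C2C12-Notch1 wells and 33.2, 32.6 and 36.7 RPKM in the matching C2C12-control wells. Neither gene's ranges overlapped between the lines, yet the differences were small. Furin differed by 0.07 on the log2 scale (edgeR adjusted p 0.274) and the related protease gene Adam17 by -0.10 (0.141). Adam10 fell by 0.17 on the log2 scale (edgeR adjusted p 0.0147). That call held in 10 of 15 alternatives. Among other settings, it was lost without either well with HEK-control. The edgeR adjusted p was 0.387 without that C2C12-Notch1 well and 0.36 without that C2C12-control well, in a range from 0.00558 to 0.387 over the alternatives.

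Among the glycosylation enzymes, the Fringe gene Lfng changed most. Fringe enzymes extend O-fucose on the receptor and thereby alter which ligands it favours. Lfng had 5.01, 5.43 and 6.48 RPKM (44, 28 and 77 reads) in the C2C12-Notch1 wells with HEK-Jag1Ndr, HEK-Jag1WT and HEK-control, against 9.20, 9.90 and 10.4 RPKM (168, 105 and 95 reads) in the matching C2C12-control wells. Every C2C12-Notch1 well was below every C2C12-control well. The log2 change was -0.81 (SE 0.144, edgeR adjusted p 3.01e-06). Rfng, the other Fringe gene that was expressed, averaged 21.6 ± 2.37 RPKM in the C2C12-Notch1 wells and 20.8 ± 1.99 RPKM in the C2C12-control wells (SD, n = 3 each), a log2 difference of 0.04 (edgeR adjusted p 0.742).

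The enzymes that start the sugar chains moved little. Poglut1, which adds O-glucose to the receptor, had 29.8, 24.2 and 28.5 RPKM in the C2C12-Notch1 wells with HEK-Jag1Ndr, HEK-Jag1WT and HEK-control, against 21.5, 24.0 and 25.1 RPKM in the matching C2C12-control wells. The ranges overlapped. It rose by 0.24 (edgeR adjusted p 0.0107), and Pofut1, which adds the O-fucose, fell by 0.21 on the log2 scale (0.00807). Both calls held in 10 of 15 alternatives. Among other settings, they were lost without either well with HEK-Jag1Ndr. Without the C2C12-Notch1 well the edgeR adjusted p was 0.467 for Poglut1 and 0.114 for Pofut1, and without the C2C12-control well it was 0.49 and 0.115. Over the alternatives Poglut1 ranged from 0.00258 to 0.49 and Pofut1 from 0.00345 to 0.183.

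Within gamma-secretase, the protease that frees the intracellular domain, the subunits moved apart. Ncstn, whose product binds the substrate, had 36.1, 33.0 and 34.3 RPKM in the C2C12-Notch1 wells with HEK-Jag1Ndr, HEK-Jag1WT and HEK-control, against 56.8, 59.9 and 56.1 RPKM in the matching C2C12-control wells. The ranges were far apart, and Ncstn had the smallest p of the machinery, with a log2 change of -0.74 (SE 0.0649, edgeR adjusted p 7.25e-15). Psen2, the catalytic presenilin in this list, had 6.16, 4.38 and 7.21 RPKM (46, 19 and 72 reads) in the C2C12-Notch1 wells, against 3.80, 2.08 and 4.45 RPKM (61, 19 and 36 reads) in the matching C2C12-control wells. It was higher in C2C12-Notch1 cells beside each HEK partner, although the ranges met at 4.38 and 4.45 RPKM. The log2 change was 0.68 (SE 0.196, edgeR adjusted p 0.00237), and DESeq2 gave 0.152, the highest over alternatives that began at 0.00229. The small subunit genes Psenen and Aph1a did not pass. Psenen differed by -0.53 (edgeR adjusted p 0.14) with 5 to 36 reads per well, and Aph1a by -0.19 (0.353).

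In the nuclear complex, Rbpj and the acetyltransferase gene Kat2b were lower in C2C12-Notch1 cells. Rbpj, the DNA-binding partner of the Notch intracellular domain, had 11.9, 11.0 and 11.5 RPKM in the C2C12-Notch1 wells with HEK-Jag1Ndr, HEK-Jag1WT and HEK-control, against 16.3, 13.8 and 19.4 RPKM in the matching C2C12-control wells. Kat2b, also called PCAF, had 7.32, 9.47 and 7.39 RPKM in the C2C12-Notch1 wells, against 13.9, 15.7 and 14.0 RPKM in the matching C2C12-control wells. For both genes all C2C12-Notch1 wells were below all C2C12-control wells. The log2 change was -0.55 for Rbpj (SE 0.112, edgeR adjusted p 3.87e-05) and -0.88 for Kat2b (SE 0.0946, 8.8e-12), the largest fall of the machinery. DESeq2 gave Rbpj an adjusted p of 0.0553, the highest over alternatives that began at 3.62e-07.

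Other members of the complex went the other way or did not pass. Snw1 had 62.5, 55.6 and 59.4 RPKM in the C2C12-Notch1 wells with HEK-Jag1Ndr, HEK-Jag1WT and HEK-control, against 49.8, 49.9 and 48.9 RPKM in the matching C2C12-control wells, and rose by 0.25 (edgeR adjusted p 0.000721, from 0.000482 to 0.0918 over the alternatives, lost in DESeq2). The acetyltransferase genes Crebbp and Kat2a rose by 0.49 and 0.23 on the log2 scale, while the close relative of Crebbp, Ep300, differed by 0.06 (edgeR adjusted p 0.481). Of the Mastermind genes, whose products bridge the Notch and RBPJ complex to acetyltransferases, Maml3 fell by 0.32 on the log2 scale. Maml2 had 1.78, 1.94 and 1.88 RPKM in the C2C12-Notch1 wells and 1.43, 1.31 and 1.52 RPKM in the matching C2C12-control wells, a log2 difference of 0.36 (edgeR adjusted p 0.0981), and Maml1 differed by 0.06 (0.483). The calls of Kat2a and Maml3 held in 11 and 10 of 15 alternatives. Among other settings, both were lost without either well with HEK-Jag1Ndr. Without the C2C12-Notch1 well the edgeR adjusted p was 0.28 for Kat2a and 0.124 for Maml3, and without the C2C12-control well it was 0.294 and 0.123. Over the alternatives they ranged from 0.0013 to 0.294 and from 0.0036 to 0.225.

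Of the corepressors, Ctbp1 fell and the others differed by less. Ctbp1, a corepressor in RBPJ complexes that keep target genes off, had 70.9, 55.7 and 70.8 RPKM in the C2C12-Notch1 wells with HEK-Jag1Ndr, HEK-Jag1WT and HEK-control, against 94.1, 88.6 and 93.2 RPKM in the matching C2C12-control wells. No C2C12-Notch1 well reached the C2C12-control range, and the log2 change was -0.48 (SE 0.0568, edgeR adjusted p 1.12e-10). Ncor1, a scaffold for histone deacetylases, rose by 0.13 (edgeR adjusted p 0.0334), a call that held in 6 of 15 alternatives, with adjusted p values from 0.0244 to 0.326. Leaving out the C2C12-Notch1/HEK-Jag1Ndr well gave Ncor1 0.262 and leaving out that with HEK-Jag1WT gave 0.0769. Leaving out the C2C12-control/HEK-Jag1Ndr well gave 0.257 and that with HEK-Jag1WT gave 0.0901. Cir1, which links RBPJ to deacetylases, had 5.64, 12.3 and 8.04 RPKM in the C2C12-Notch1 wells and 9.32, 7.03 and 9.31 RPKM in the matching C2C12-control wells, from 7 to 24 reads. Cir1 overlapped between the lines and did not pass (-0.12, edgeR adjusted p 0.798), nor did the RBPJ corepressor gene Spen (0.06, 0.371) or the deacetylase gene Hdac1 (0.17, 0.395).

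Genes acting on trafficking and turnover split within a family. Deltex proteins are ubiquitin ligases that bind the receptor's intracellular part. Dtx2 had 10.9, 11.0 and 10.7 RPKM in the C2C12-Notch1 wells with HEK-Jag1Ndr, HEK-Jag1WT and HEK-control, against 17.2, 17.8 and 16.1 RPKM in the matching C2C12-control wells. Dtx4 had 23.6, 27.3 and 21.8 RPKM in the C2C12-Notch1 wells, against 15.3, 20.4 and 11.7 RPKM in the matching C2C12-control wells. Dtx2 was thus lower in all C2C12-Notch1 wells and Dtx4 higher in all of them, with log2 changes of -0.64 (SE 0.10, edgeR adjusted p 1.98e-07) and 0.63 (SE 0.0700, 2.4e-11). Dtx3 had 32.1, 29.4 and 38.1 RPKM in the C2C12-Notch1 wells, against 32.8, 32.1 and 34.4 RPKM in the matching C2C12-control wells, overlapping ranges that gave an edgeR adjusted p of 0.984. The call of Dtx4 was lost only in the model without the HEK line, at an adjusted p of 0.117, the highest over alternatives that began at 1.65e-19.

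Fbxw7, whose product recognises the phosphorylated intracellular domain for destruction, had 5.39, 6.10 and 5.03 RPKM in the C2C12-Notch1 wells with HEK-Jag1Ndr, HEK-Jag1WT and HEK-control, against 2.99, 4.59 and 4.01 RPKM in the matching C2C12-control wells. The ranges did not overlap and the log2 change was 0.55 (SE 0.142, edgeR adjusted p 0.000792). The adjusted p was 0.0995 without the C2C12-Notch1/HEK-Jag1Ndr well, 0.0933 without the C2C12-control/HEK-Jag1Ndr well and 0.13 in DESeq2, in a range that began at 0.000129. Numbl, a relative of the Notch antagonist Numb, fell by 0.36 on the log2 scale, Mib2, a ligase of Notch ligands, by 0.32, and Aak1, a kinase of endocytic adaptors, by 0.23, with edgeR adjusted p values of 0.00065, 0.00466 and 0.00157. Over the alternatives the adjusted p ranged from 0.000341 to 0.0961 for Numbl and from 0.00277 to 0.176 for Mib2, both lost in DESeq2. That of Aak1 ranged from 0.000803 to 0.166, lost in DESeq2 and in limma. Numb (-0.07, edgeR adjusted p 0.625), the ligase gene Itch (0.00, 0.997) and Mib1 (-0.16, 0.109) did not pass.

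**Figure D2:**
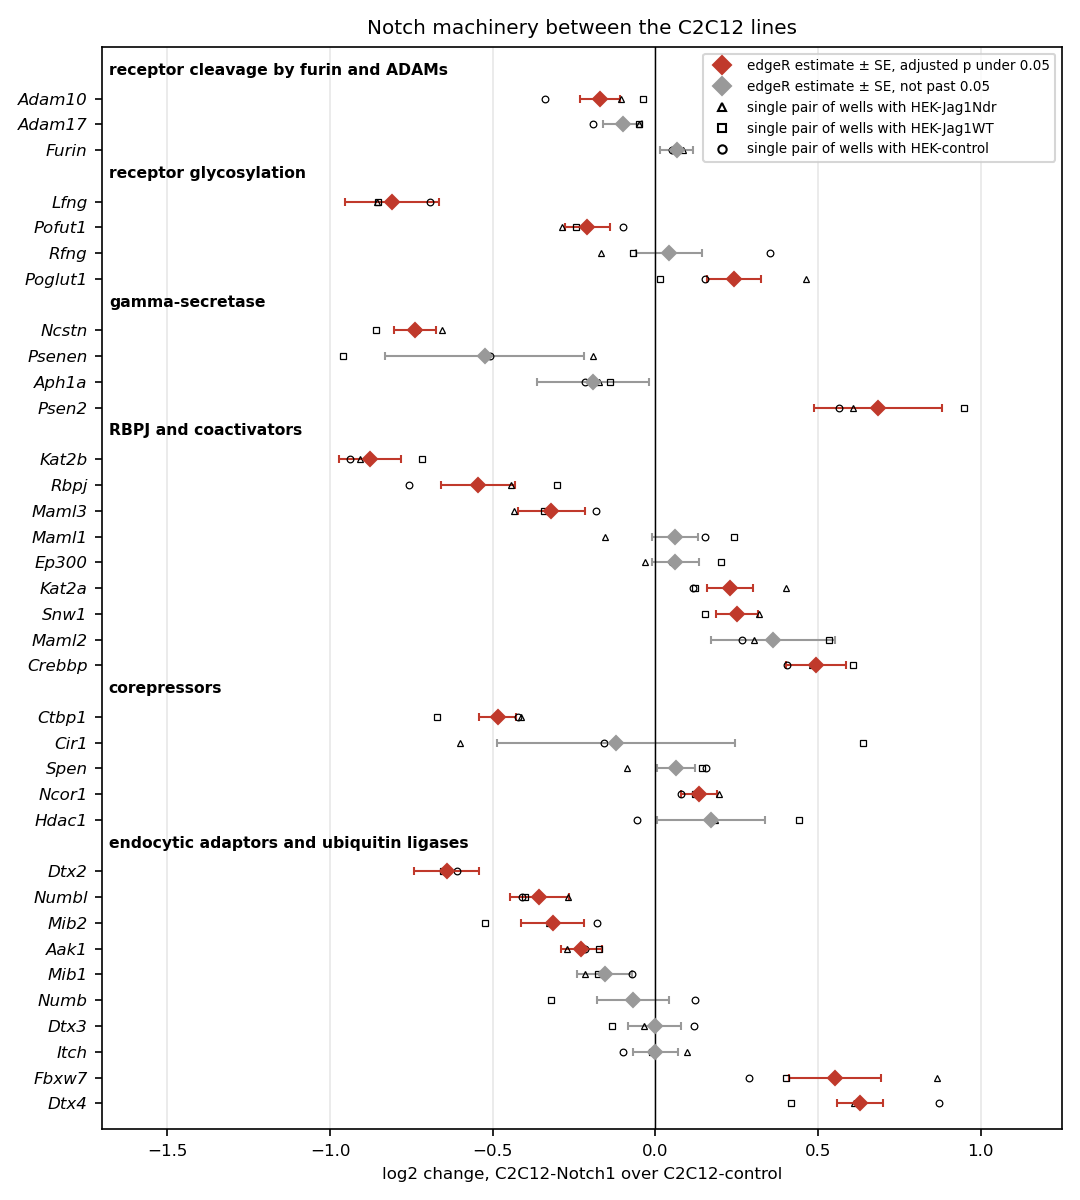
Log2 change of each tested gene in C2C12-Notch1 over C2C12-control cells, with the edgeR estimate ± SE from all 6 wells as diamonds and the 3 single pairs of wells sharing a HEK partner as open symbols. The 20 genes that passed run from Kat2b at -0.88 to Psen2 at 0.68, with calls on both sides of 0 in 5 of the 6 roles.

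The next comparison asked how the machinery in C2C12 cells responded to 6 h with HEK-Jag1WT, against HEK-control. Dtx4 rose and Psen2 fell. By edgeR 2 of 35 genes were called, or 5.71%, against 4.46% of all genes tested, so the count was close to that of the table as a whole. The median absolute log2 change was 0.08 for the machinery and 0.11 for all genes. The next smallest edgeR adjusted p was 0.252, for Mib2 at -0.29.

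Beside HEK-Jag1WT, Dtx4 had 27.3 RPKM (354 reads) in the C2C12-Notch1 well and 20.4 RPKM (541 reads) in the C2C12-control well. Beside HEK-control it had 21.8 RPKM (651 reads) in the C2C12-Notch1 well and 11.7 RPKM (267 reads) in the C2C12-control well. It was thus higher beside HEK-Jag1WT with either C2C12 line, although the ranges of the HEK partners overlapped at 20.4 and 21.8 RPKM. The log2 change was 0.58 (SE 0.0884, edgeR adjusted p 2.14e-06). The call held when any single well was left out and in DESeq2, and was lost in limma on RPKM, at 0.111 and 0.133, in a range from 1.15e-09 to 0.133. Human DTX4 was at 1.91 and 1.98 RPKM in the human table beside HEK-Jag1WT and at 3.78 and 4.18 RPKM beside HEK-control, the opposite order.

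Psen2 had 4.38 RPKM (19 reads) in the C2C12-Notch1 well and 2.08 RPKM (19 reads) in the C2C12-control/HEK-Jag1WT well. With HEK-control it had 7.21 RPKM (72 reads) in the C2C12-Notch1 well and 4.45 RPKM (36 reads) in the C2C12-control well. The level beside HEK-Jag1WT was lower with either C2C12 line, and the log2 change was -0.88 (SE 0.273, edgeR adjusted p 0.047). This call held in 4 of 15 alternatives, with adjusted p values from 0.025 to 1. It was lost without any single well. Without a C2C12-Notch1 well the adjusted p was 0.0625 (HEK-Jag1Ndr), 0.118 (HEK-Jag1WT) and 0.164 (HEK-control), and without a C2C12-control well it was 0.0517, 0.511 and 0.176 in the same order of partners.

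HEK-Jag1Ndr was then compared with HEK-control in the same way. In edgeR 0 of 35 genes passed, against 0.528% of all genes tested, with 1 at an unadjusted p under 0.05. DESeq2 and limma also called 0. The log2 changes ran from -0.26 for Aph1a to 0.25 for Dtx4, with a median absolute change of 0.06 beside 0.08 for all genes. Dtx4 had 23.6 RPKM (519 reads) in the C2C12-Notch1 well and 15.3 RPKM (702 reads) in the C2C12-control/HEK-Jag1Ndr well, between its levels beside HEK-Jag1WT and HEK-control with either line. Its change against HEK-control was 0.25 (SE 0.0844, edgeR adjusted p 0.277), and without the C2C12-Notch1/HEK-control well it was 0.45 with an adjusted p of 0.0169. That was the only alternative in which any machinery gene passed here. Psen2 stood at -0.18 (edgeR adjusted p 0.937) and Lfng at -0.22 (0.843).

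The Jag1 forms were also compared directly, HEK-Jag1Ndr against HEK-Jag1WT. These comparisons share wells, so they are not independent of one another. Dtx4 was lower beside HEK-Jag1Ndr, with a difference of -0.33 on the log2 scale (SE 0.0837, edgeR adjusted p 0.0132), and it was the only gene of 35 that passed, against 2.03% of all genes tested. The call held in 9 of 15 alternatives, with adjusted p values from 0.000804 to 0.988. It was lost without the C2C12-Notch1/HEK-Jag1Ndr well (0.101), the C2C12-control/HEK-Jag1Ndr well (0.112) or the C2C12-control/HEK-Jag1WT well (0.84), the last with a log2 difference of -0.16. Psen2 had the largest difference, 0.70, which did not pass (edgeR adjusted p 0.276), and Fbxw7 stood at -0.41 (0.363). Lfng differed by -0.12 here (edgeR adjusted p 0.923) and by -0.10 between HEK-Jag1WT and HEK-control (0.881).

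**Figure D3:**
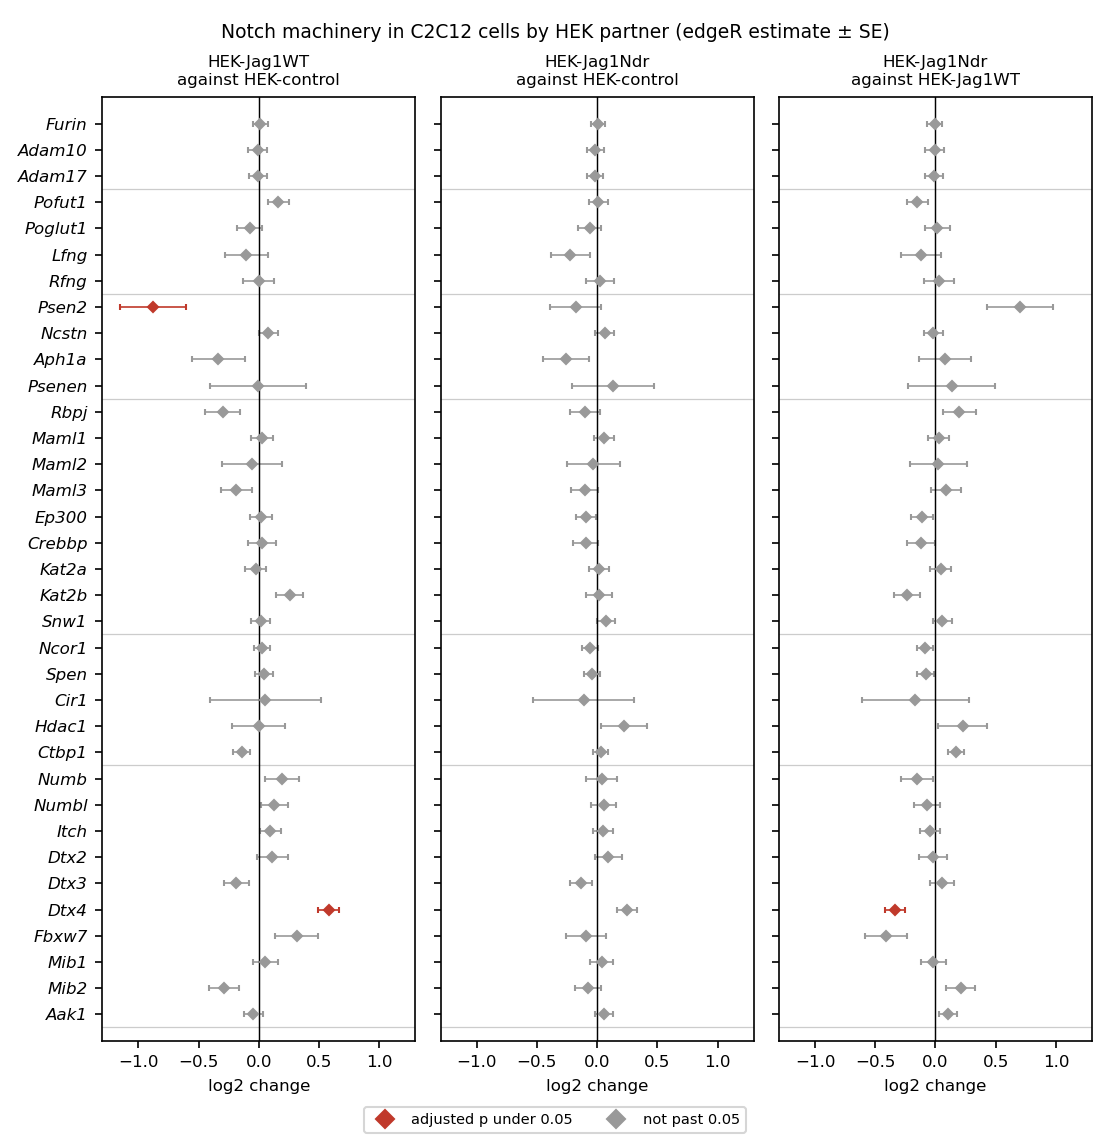
Log2 change ± SE (edgeR, all 6 wells) of each tested gene in the 3 comparisons of HEK partners, grouped by role, with red for an adjusted p under 0.05. Dtx4 at 0.58 and Psen2 at -0.88 pass for HEK-Jag1WT against HEK-control, no gene passes for HEK-Jag1Ndr against HEK-control, and Dtx4 at -0.33 passes between the Jag1 forms.

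Within each C2C12 line a response rests on single wells and was not tested. Dtx4 gave a log2 ratio of 0.37 (95% counting interval 0.18 to 0.56) in C2C12-Notch1 cells and 0.83 (0.62 to 1.05) in C2C12-control cells for HEK-Jag1WT against HEK-control. For HEK-Jag1Ndr against HEK-control the ratios were 0.15 (-0.02 to 0.32) and 0.41 (0.21 to 0.62) in the same order of lines. The intervals of the C2C12 lines did not overlap for 1 of 35 genes, Dtx4, for HEK-Jag1WT against HEK-control, beside 2.02% of all genes. They did so for 0 of 35 for HEK-Jag1Ndr against HEK-control, beside 3.10%, and for 0 of 35 between the Jag1 forms, beside 1.72%. These intervals cover counting error only. Psen2 gave -0.65 (-1.48 to 0.07) in C2C12-Notch1 cells and -1.04 (-1.99 to -0.27) in C2C12-control cells for HEK-Jag1WT against HEK-control, intervals that overlap widely. Both lines shared the sign for 23 of the 35 genes in that comparison, beside 57.1% of all genes. They shared it for 16 of 35 for HEK-Jag1Ndr against HEK-control, beside 51.4%, and for 20 of 35 between the Jag1 forms, beside 54.9%.

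**Figure D4:**
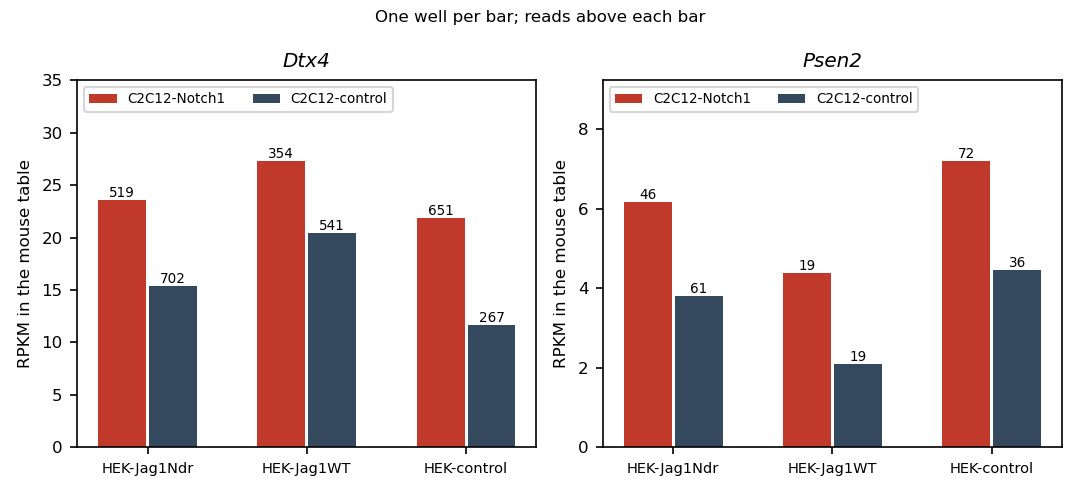
RPKM in the mouse table of Dtx4 and Psen2 for each HEK partner, 1 bar per well, with the number of reads above it. Dtx4 is highest beside HEK-Jag1WT in both C2C12 lines (27.3 and 20.4 RPKM), Psen2 is lowest there (4.38 and 2.08 RPKM, 19 reads each), and both genes are higher in the C2C12-Notch1 well of every pair.

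Related genes outside the 36 were read for comparison. Of a list of other Notch machinery, 31 genes were in the table and 27 were tested, of which edgeR called 6 higher and 10 lower between the C2C12 lines, or 59.3%, close to the 57.8% of all genes. The ubiquitin ligase gene Nedd4 rose by 0.73 on the log2 scale and the deacetylase gene Hdac2 by 0.49, while the ligase genes Neurl1b and Dtx3l had log2 changes of -3.79 and -2.06. Neurl1b rests on 2, 2 and 6 reads in the C2C12-Notch1 wells, and its log2 change ran from -4.17 to -1.41 over the alternatives. Notch2 fell by 0.31 on the log2 scale and Notch3 rose by 0.44. The Notch3 ranges overlapped, at 45.5 to 77.6 RPKM in the C2C12-Notch1 wells and 27.3 to 58.7 RPKM in the C2C12-control wells. That call of Notch3 held in 14 of 15 alternatives, with adjusted p values up to 0.472. Notch3 differed more by HEK partner, by 0.95 for HEK-Jag1WT against HEK-control (edgeR adjusted p 1.49e-08) and -0.68 for HEK-Jag1Ndr against HEK-Jag1WT (5.78e-06). For HEK-Jag1WT against HEK-control that list had 1 gene higher, the protease gene Adam9 at 0.21 (edgeR adjusted p 0.047), and 1 lower, the corepressor gene Tle2 at -0.94 (0.00472). The call of Adam9 rested on each of the 4 wells compared. Without a C2C12-Notch1 well the adjusted p of Adam9 was 0.341 (HEK-Jag1WT) and 0.232 (HEK-control), and without a C2C12-control well it was 0.336 and 0.187, in a range from 0.0285 to 0.994. That of Tle2 was 0.289 without the C2C12-Notch1/HEK-control well and 0.152 without the C2C12-control/HEK-Jag1WT well, in a range from 4.62e-05 to 0.68. For HEK-Jag1Ndr against HEK-control 0 of the 27 were called by edgeR, with 1 at an unadjusted p under 0.05. Between HEK-Jag1Ndr and HEK-Jag1WT 1 was called, Tle2, higher by 0.81 (edgeR adjusted p 0.0284). Leaving out the C2C12-Notch1/HEK-Jag1WT well gave 0.0806, the C2C12-control/HEK-Jag1Ndr well 0.974 and the C2C12-control/HEK-Jag1WT well 0.482, in a range from 0.000482 to 0.974. Of the 10 tested Notch target genes, 6 were called higher and 1 lower by edgeR beside HEK-Jag1WT, against HEK-control, where 4.46% of all genes were called. For HEK-Jag1Ndr against HEK-control 1 of the 10 was called, higher, where 0.528% of all genes were called. For HEK-Jag1Ndr against HEK-Jag1WT 1 was called higher and 4 lower, where 2.03% of all genes were called.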

How the data were processed

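Deposited mouse and human tables of 6 co-culture wells were used. The libraries came from polyA RNA and a TruSeq kit without strand information, per the labels. The submitters' processing notes name STAR and the builds mm9 and hg19. No source used here gives the counter or how species were separated. Per the file headers, the authors deposited whole-number read counts and RPKM per RefSeq gene and well. The column names do not give the scaling of RPKM, which was taken here to be that species' own reads. Of 23905 mouse entries, 472 exact repeats were left out.

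Deposited counts of the whole mouse table were fitted with edgeR 4.0.16 in R 4.3.3 (TMM, filterByExpr, robust quasi-likelihood test, Benjamini-Hochberg adjustment over 11365 genes, threshold 0.05). C2C12 line and HEK line entered as additive terms over all 6 wells, with 2 residual degrees of freedom. The SE given with a log2 change is not an edgeR output. It was derived as the absolute log2 change divided by the square root of the quasi-likelihood F statistic. Replicates were therefore the 3 wells of a C2C12 line or the 2 wells of a HEK line, and an effect of 1 particular combination adds to the spread. As no separate cultures are named in the labels, the p-values reflect the spread among these wells only, and this may be technical. The spread used for a gene is also drawn towards that of the other genes tested. The common coefficient of variation was 3.89%. A very small p therefore rests in part on other genes and not on that gene's wells alone. Single-well log2 ratios took TMM-scaled counts plus a prior of 2, with exact conditional 95% intervals. The fit was also run on simulated data, whose outcome is not given here, so no error rate is claimed from it.

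Alternatives were other scalings, no filter, DESeq2 1.42.0, limma 3.58.1 on log2(RPKM + 1) and log2(RPKM + 0.1) for genes with a mean RPKM of at least 0.5, fewer wells or terms and, chosen after seeing the data, subtraction of human orthologue reads at the median and Cdh1 marker shares. DESeq2 adjusted p values given as NA stayed NA.

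The genes and lists were chosen with earlier results of these data known. Values in all wells are given for genes called in a ligand comparison, genes called between C2C12 lines with a log2 change of at least 0.5, Lfng, and the highest and lowest gene of each role. Other called genes have their log2 change, and context lists up to 4 genes by smallest p. The mean levels of Rfng were added after they were seen.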

Additional observations from a re-analysis of the deposited data

How the results depend on the processing

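No called machinery gene changed sign under any alternative. The labels give no replicate numbers, so wells of the C2C12 lines could be matched only by the HEK partner they share. That partner was already a term in the model. Without it 18 of 35 machinery genes and 5769 of all genes were called between the C2C12 lines. Between the C2C12 lines, the count of called machinery genes, 20 of 35, was 14 to 19 without 1 well, 7 in DESeq2, and 22 with human orthologue reads subtracted at the Cdh1 share, where Psenen and Mib1 also passed; all genes called were 5382 to 5966 without 1 well and 3506 in DESeq2, against 6569. For HEK-Jag1WT against HEK-control, 2 machinery genes became 1 without any single well, in DESeq2, in the 4 wells compared and with human reads subtracted at the median share, and 0 in limma with either pseudocount. Of all genes, 507 became 148 in DESeq2, 135 and 88 in limma with a pseudocount of 1 and 0.1, and 303 to 580 without 1 well (303 without the C2C12-Notch1 well and 320 without the C2C12-control/HEK-Jag1WT well). With total reads as the only scaling, the higher and lower calls were 250 and 281, against 307 and 200, and for HEK-Jag1Ndr against HEK-control 36 and 16, against 49 and 11. In that comparison 0 machinery genes became 0 to 1 without 1 well, and 60 genes in all became 40 to 84, 91 with no filter, 7 in DESeq2 and 2 in limma with either pseudocount. Between the Jag1 forms, 1 machinery gene became 0 to 1 without 1 well and 0 in DESeq2 and in limma with either pseudocount, and 231 genes in all became 138 to 313 without 1 well, 41 in DESeq2, and 2 and 5 in limma. Where an alternative drops a well, fewer samples carry the fit; the causes of the other differences were not tested. Genes with few reads, such as Cir1, Psenen and Psen2, limit what could be detected.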

Other observations

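Ratios between related machinery genes within a well do not depend on how wells are scaled. The 8 pairs were chosen after the data were seen. The RPKM ratio of Kat2b to Kat2a, paralogous acetyltransferase genes, was 0.225 ± 0.050 in the C2C12-Notch1 wells and 0.469 ± 0.0383 in the C2C12-control wells (SD, n = 3 each). The ratio of Crebbp to Ep300 was 0.649 ± 0.0182 in the C2C12-Notch1 wells and 0.482 ± 0.0137 in the C2C12-control wells. Dtx4 to Dtx2 stood at 2.23 ± 0.232 in the C2C12-Notch1 wells and 0.920 ± 0.213 in the C2C12-control wells, and Lfng to Rfng at 0.261 ± 0.00995 in the C2C12-Notch1 wells and 0.477 ± 0.0749 in the C2C12-control wells. Numbl to Numb stood at 1.90 ± 0.140 in the C2C12-Notch1 wells and 2.30 ± 0.239 in the C2C12-control wells. Maml1 to Maml3 stood at 4.10 ± 0.530 in the C2C12-Notch1 wells and 3.09 ± 0.208 in the C2C12-control wells. The ranges of the lines were apart for these 6 of the 8 pairs. Each of these had a two-sided exact permutation p of 0.1, the smallest that this unpaired test allows with 3 wells against 3, or 0.133 adjusted over the 8 pairs, so it could not reach 0.05. The ratios of Mib2 to Mib1 and of Adam17 to Adam10 had exact permutation p values of 0.5 and 0.2. Such a ratio shows unequal change and not which gene moved.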
